A study of Homo sapiens with 12 samples.

Results

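The DNA replication machinery was followed through 52 genes that license origins, unwind DNA, prime and extend new strands, load the sliding clamp, supply nucleotides and rebuild chromatin behind the fork. The genes were chosen by name out of 18852 genes annotated on the arrays, with earlier results of these data known. All probes annotated to them were taken. Of the 52 genes, 51 had at least 1 annotated probe and 49 were detected well enough to be tested. POLD2 had no annotated probe, and the probes of GINS1 and DBF4 were detected on 0 of 12 arrays. The study measured mRNA on Illumina bead arrays in H1, an established human embryonic stem cell line, with the stated purpose of finding mRNAs targeted by OCT4. There were 4 groups of 3 arrays: cells transfected with an shRNA against OCT4 and harvested after 2 days, cells transfected with an shRNA against luciferase and harvested after 2 days, and the same pair of transfections harvested after 3 days. They are called knockdown and control arrays. Every group received an shRNA through Fugene, so the control cells carry the transfection as well. The labels name no other OCT4 shRNA and no other cell line. Nothing in them ties replicates to separate cultures, and the p-values therefore reflect array-to-array spread that may be technical.

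Before a cell copies its DNA, the origin recognition complex, CDC6 and CDT1 place rings of the MCM2 to MCM7 helicase on origins during G1, a step called licensing. At the start of S phase the kinase CDC7 with DBF4, together with cyclin-dependent kinases, turns the rings into active helicases with CDC45 and GINS. Primase and polymerase alpha then start each strand, and polymerases delta and epsilon extend it while held by PCNA, the sliding clamp that the RFC complex loads. Many of these genes are known targets of E2F factors, which switch them on late in G1. Human embryonic stem cells are known for a short G1 phase and a large share of cells in S phase.

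POU5F1, which encodes OCT4, checked the labels. Its normalised log2 intensity was 10.73, 11.01 and 10.34 on the day 2 knockdown arrays of replicates 1, 2 and 3, against 13.14, 12.92 and 12.69 on the day 2 control arrays. It was 9.95, 10.52 and 10.29 on the day 3 knockdown arrays, against 13.09, 13.26 and 13.29 on the day 3 control arrays. No knockdown array reached a control array, and 21.4% of the control level was left at day 2 and 12.9% at day 3. Detected probes numbered 13343 to 14969 per array, and arrays of 1 group correlated at 0.975 to 0.992 over the probes kept. The replicate 3 arrays of all groups stood apart from the others on the second principal component, which held 17.2% of the variance. The 3 arrays per group limit the precision of every value.

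At day 3, 27 of the 49 tested replication genes fell in knockdown arrays and 0 rose, while 22 did not pass the test. Where knockdown is compared with control, a gene that fell was lower than in control arrays of that day, which need not be a drop over time. Over all 10506 genes tested, 15.3% fell and 14.3% rose in the same comparison. The share of replication genes that fell, 55.1%, thus stood against a background of 15.3%. The list was chosen with earlier results of these data known, so this contrast is a description and not a test. With median scaling, 24 of the 49 fell, and over all genes 1240 fell and 1696 rose, in place of 1609 and 1505. The median log2 change of the 49 genes was -0.51, against -0.07 over all genes. Of the 49 genes, 46 lay below 0, against 5948 of all 10506. Changes ranged from -1.27 for DTL, which left 41.6% of the control level, to 0.25 for MCM6. The 27 genes that fell kept 41.6% to 76.6% of the control level, with standard errors of 0.11 to 0.27 and adjusted p-values of 3.93e-05 to 0.0432 (limma, Benjamini-Hochberg over all genes). At day 2 only MCM2 fell, and 0 rose, against backgrounds of 2.97% of all genes falling and 5.69% rising. In bulk RNA, fewer cells of a type and less RNA per cell cannot be told apart, so a fall may be either.

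**Figure D1:**
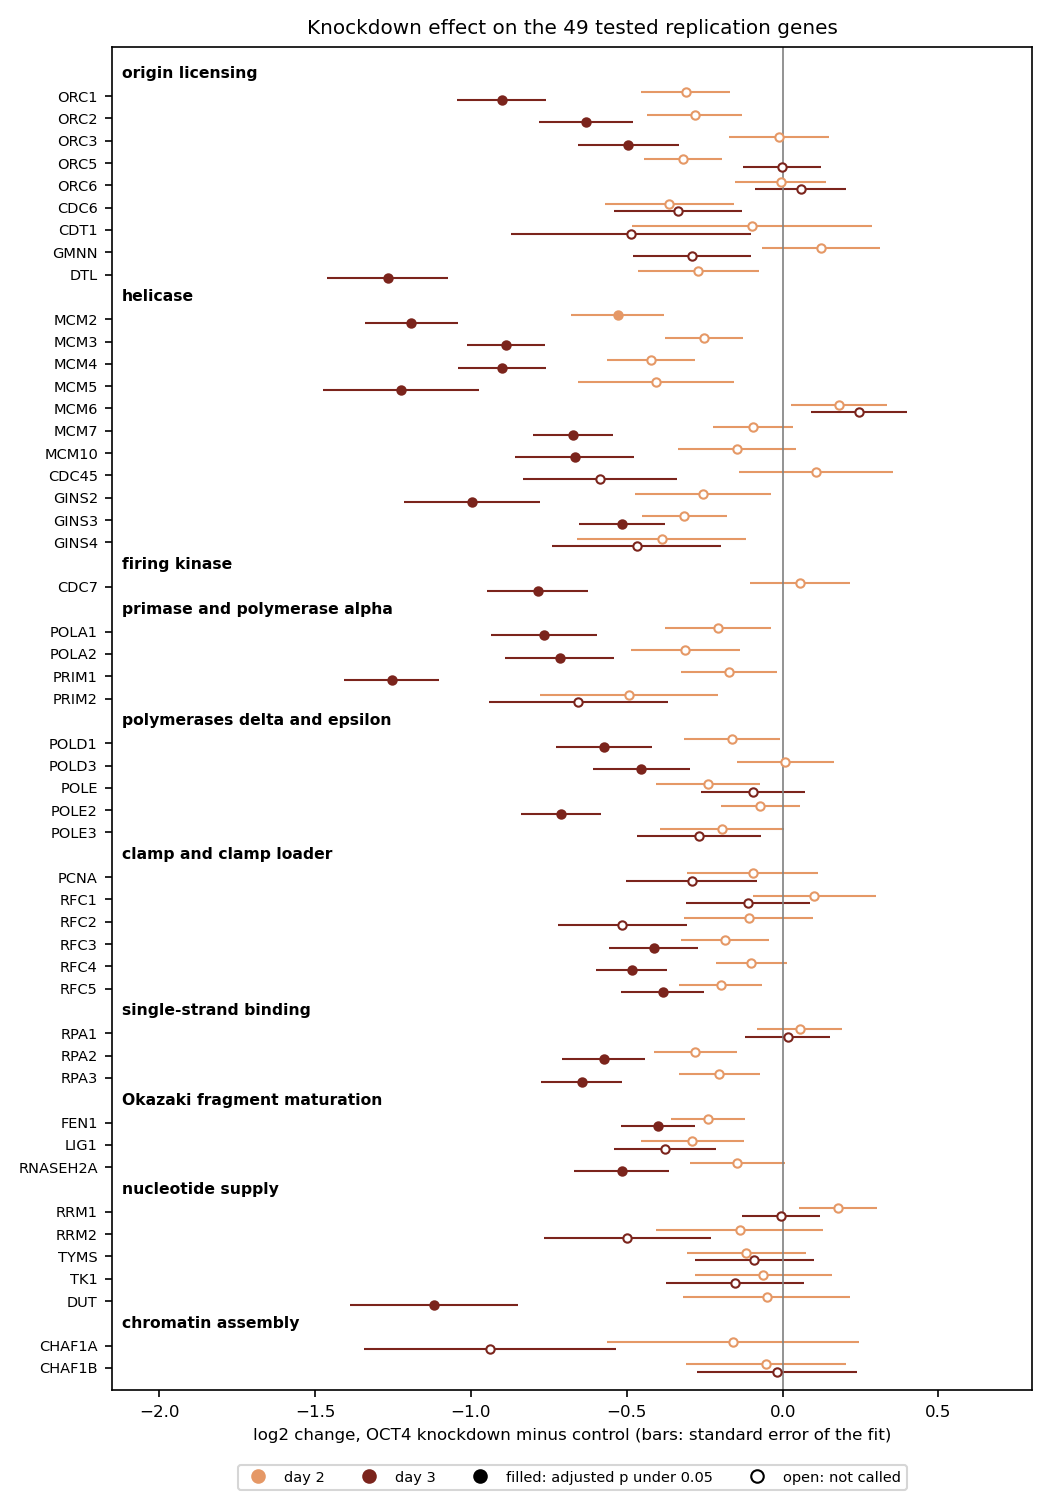
Log2 change of each tested gene, knockdown minus control, at day 2 and day 3, with the standard error of the fit, arranged by role. Filled points passed an adjusted p under 0.05. At day 3, 27 points were filled and all lay left of 0, while at day 2 the only filled point was MCM2.

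**Figure D2:**
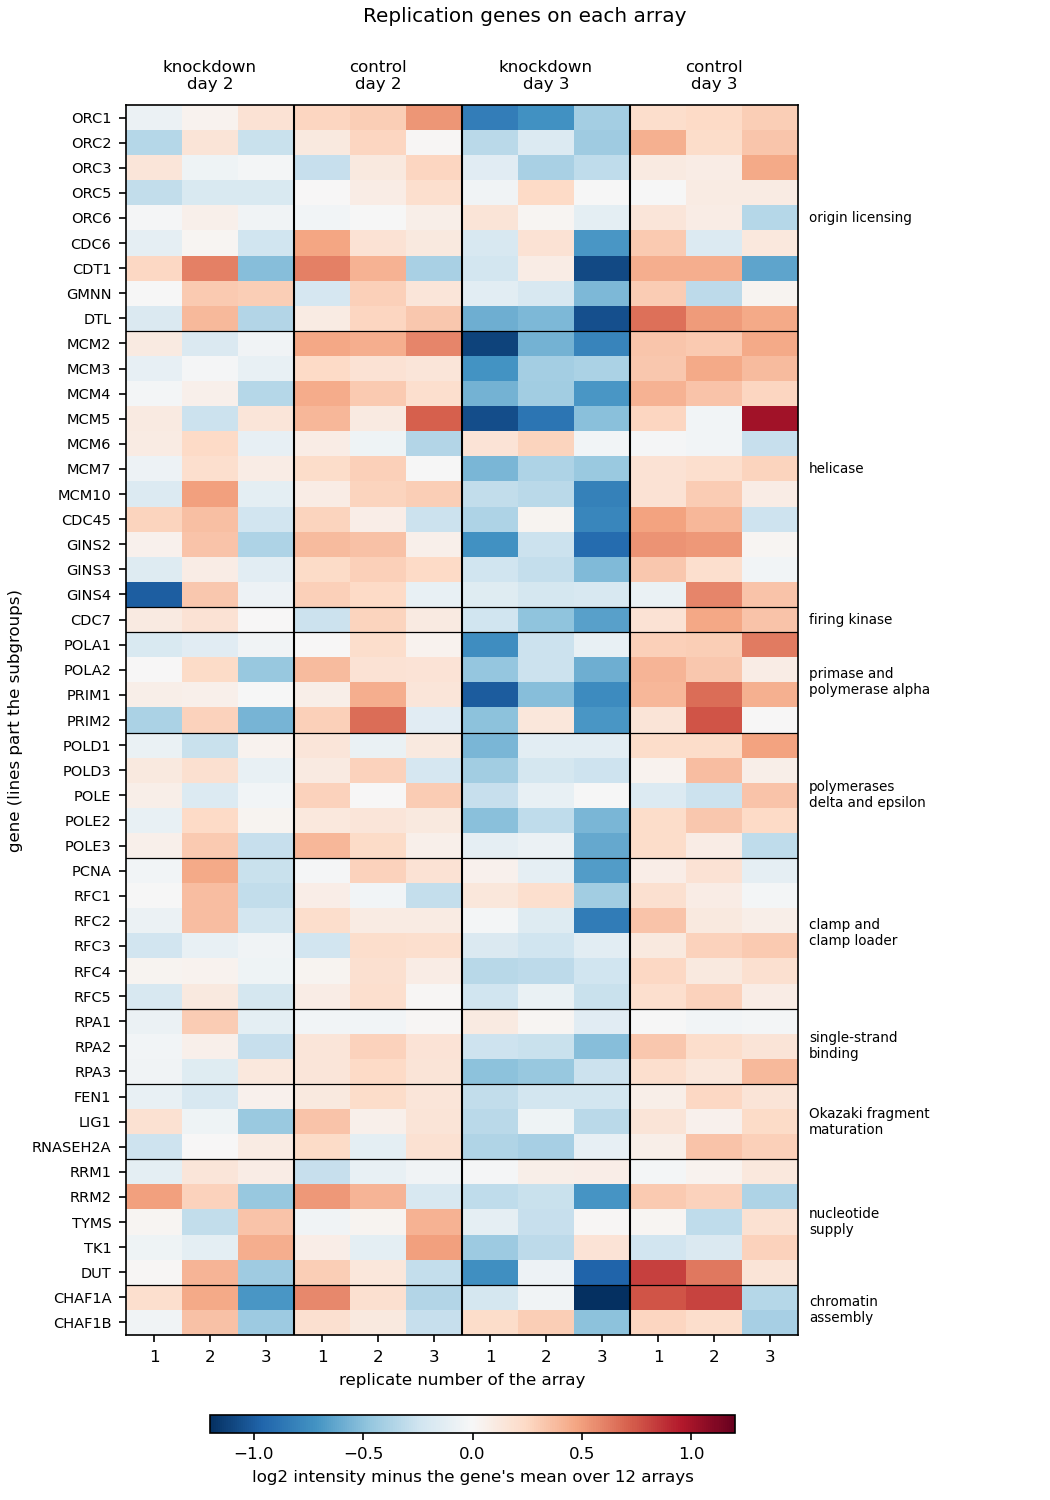
Normalised log2 intensity of the 49 tested genes on each of the 12 arrays, less the gene's mean over the arrays, with knockdown left of control at each day. The 3 day 3 knockdown arrays were low for most genes, and their medians over the 49 genes were -0.29, -0.22 and -0.45, against 0.22, 0.22 and 0.15 on the day 3 control arrays.

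Promoter sequences are shown for 7 genes: 5 that fell together at day 3, and MCM6 and PCNA, which did not pass the test and carry the same short words as 4 of the 5. The 7 were picked by name, so 4 of 5 does not estimate the share among the genes that fell. Promoter windows were those of RefSeq on GRCh38.p14, from 250 bases before to 50 bases after the start of each gene, and 46 of the 52 genes had one. The 4 words matching the E2F motif (TTTCCCGC, TTTCGCGC, TTTGCCGC and TTTGGCGC) were searched on both strands. On opposite strands TTTGGCGC and TTTCGCGC can overlap. At least 1 word was found in 19 of the 46 promoters (41.3%), against 3.33% of all 27305 promoters in the table and 5.31% of the 8609 promoters of tested genes. The words were in 11 of the 22 promoters of genes that fell at day 3 and in 7 of the 21 promoters of tested genes that did not pass. The octamer ATGCAAAT, a word that POU factors bind, was in 0 of the 46 windows. It was in 1.80% of all promoters and 1.36% of those of tested genes, shares too low for 0 of 46 to set the windows apart. CCAAT was in 25 of 46, in 35.7% of all promoters and in 37.2% of those of tested genes. A word in a window is a description and does not show binding. The last 200 bases before the start are printed 5′ to 3′ on the strand of the gene, with the E2F words in capitals.
DTL, fell, chr1:212035548-212035747, plus strand: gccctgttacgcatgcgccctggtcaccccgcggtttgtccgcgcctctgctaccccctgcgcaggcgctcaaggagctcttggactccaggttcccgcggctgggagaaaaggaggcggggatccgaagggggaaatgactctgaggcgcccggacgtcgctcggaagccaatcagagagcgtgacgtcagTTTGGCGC
GINS2, fell, chr16:85688955-85689154, minus strand: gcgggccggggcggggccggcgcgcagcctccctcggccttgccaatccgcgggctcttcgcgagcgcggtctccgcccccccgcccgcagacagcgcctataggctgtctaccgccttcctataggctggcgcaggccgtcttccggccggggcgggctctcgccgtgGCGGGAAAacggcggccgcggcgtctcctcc
MCM7, fell, chr7:100101398-100101597, minus strand: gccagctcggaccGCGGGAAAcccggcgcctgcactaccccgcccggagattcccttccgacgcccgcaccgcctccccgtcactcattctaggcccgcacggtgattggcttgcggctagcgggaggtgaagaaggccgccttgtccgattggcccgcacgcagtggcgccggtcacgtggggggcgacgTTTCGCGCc
POLA1, fell, chrX:24693718-24693917, plus strand: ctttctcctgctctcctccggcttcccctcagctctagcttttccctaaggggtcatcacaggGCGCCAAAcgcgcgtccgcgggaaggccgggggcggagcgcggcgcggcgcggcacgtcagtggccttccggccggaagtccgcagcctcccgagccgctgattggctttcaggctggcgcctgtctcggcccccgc
PRIM1, fell, chr12:56752324-56752523, minus strand: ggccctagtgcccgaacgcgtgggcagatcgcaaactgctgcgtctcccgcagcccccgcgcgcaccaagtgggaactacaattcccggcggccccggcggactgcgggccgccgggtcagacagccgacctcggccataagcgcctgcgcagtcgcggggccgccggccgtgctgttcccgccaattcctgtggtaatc
MCM6, not called, chr2:135876444-135876643, minus strand: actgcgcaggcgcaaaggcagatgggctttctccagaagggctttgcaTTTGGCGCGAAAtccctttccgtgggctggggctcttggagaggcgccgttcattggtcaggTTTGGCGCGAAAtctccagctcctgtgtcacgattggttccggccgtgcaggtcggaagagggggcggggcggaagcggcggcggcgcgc
PCNA, not called, chr20:5126623-5126822, minus strand: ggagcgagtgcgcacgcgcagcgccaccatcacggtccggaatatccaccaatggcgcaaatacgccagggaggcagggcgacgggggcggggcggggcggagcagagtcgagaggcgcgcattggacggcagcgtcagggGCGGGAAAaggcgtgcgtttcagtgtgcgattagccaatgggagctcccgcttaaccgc
The MCM6 window holds 4 words in 2 overlapping pairs, whereas the PRIM1 window holds none of the exact words. Near matches to the words were not searched.

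**Figure D3:**
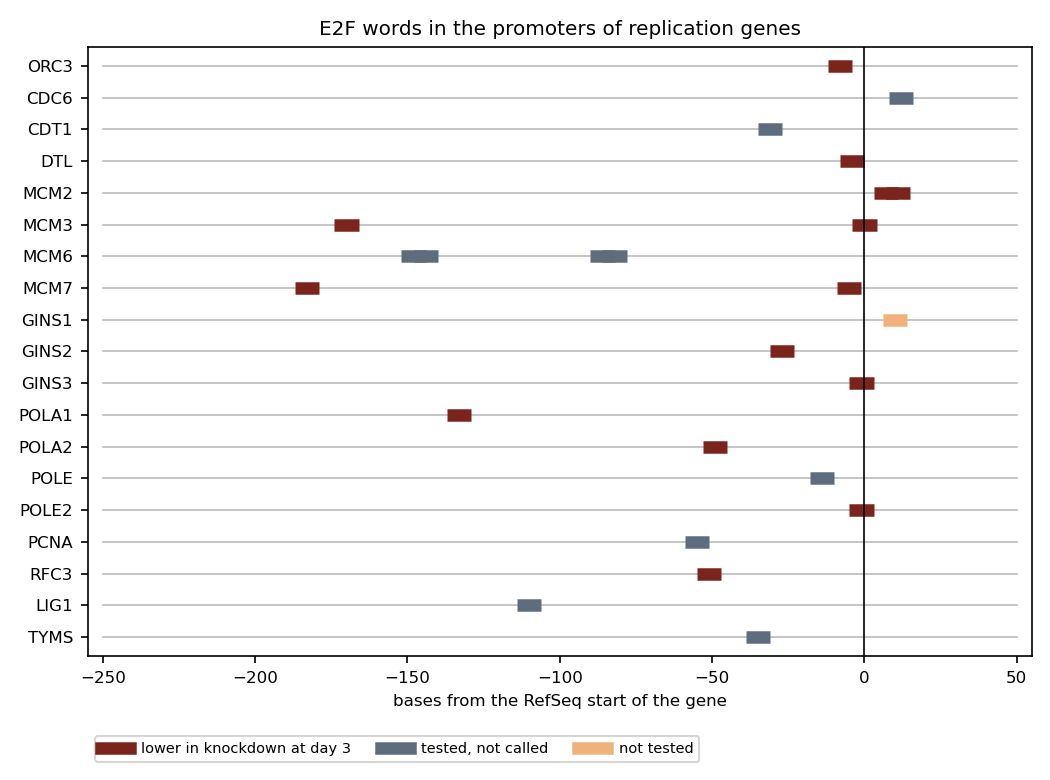
Positions of the E2F words in the 19 promoters that hold at least 1, as bases from the RefSeq start (vertical line), with 1 row per gene. Bars are coloured by the result at day 3. Words lay on both sides of the start in genes that fell and in genes that did not pass.

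Among the 9 origin licensing genes, 4 fell at day 3 and the median change was -0.49. DTL, the substrate receptor of the ubiquitin ligase that marks CDT1 for destruction in S phase, had 7.62, 7.67 and 7.14 on the day 3 knockdown arrays, against 8.86, 8.71 and 8.65 on the control arrays. All 3 knockdown arrays lay below every control array, a change of -1.27 (SE 0.19, limma adjusted p = 2.65e-04). ORC1, the subunit of the origin recognition complex that varies with the cell cycle, had 7.22, 7.33 and 7.65 on knockdown arrays, against 8.27, 8.29 and 8.35 on control arrays. It fell by 0.90 (SE 0.14, adjusted p = 3.38e-04). Other subunits of the complex differed in their values: ORC2 fell by 0.63 and ORC3 by 0.49, whereas ORC5 changed by -0.00 (95% interval -0.27 to 0.27) and ORC6 by 0.06 (-0.26 to 0.37), neither past the test. The ORC3 call was lost without knockdown day 3 replicate 2 (adjusted p = 0.110) or 3 (0.0774), without control day 3 replicate 3 (0.127), and without the replicate 3 array of every group (0.165).

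The loaders CDC6 and CDT1 and the CDT1 inhibitor geminin (GMNN) did not pass the test at day 3. CDT1 had 10.58, 10.89 and 9.72 on knockdown arrays, against 11.24, 11.24 and 10.17 on control arrays, so each knockdown array lay below the control array of its number although the groups overlapped. Its change was -0.49 (SE 0.38, adjusted p = 0.382), and with the replicate number as a block the adjusted p was 0.00631. The array values of CDT1, and of MCM6 below, were chosen for display after they had been seen. GMNN changed by -0.29 (adjusted p = 0.279) and CDC6 by -0.34 (adjusted p = 0.250). The CDC6 probe was dim and was detected on 1 of 3 knockdown and 2 of 3 control arrays at day 3.

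The helicase genes held 8 falls among 11 tested, with a median change of -0.67. MCM5 had 9.36, 9.55 and 9.92 on the day 3 knockdown arrays, against 10.68, 10.39 and 11.43 on the control arrays. MCM2 had 8.92, 9.46 and 9.23 on knockdown arrays, against 10.36, 10.34 and 10.48 on control arrays. The groups did not overlap for either gene, and the changes were -1.22 (SE 0.25, adjusted p = 0.00235) for MCM5 and -1.19 (SE 0.15, adjusted p = 4.62e-05) for MCM2. MCM4 fell by 0.90, MCM3 by 0.89 and MCM7 by 0.67, each past the test and with no overlap between the groups.

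MCM6 was the ring subunit that did not pass the test. It had 12.77, 12.87 and 12.57 on the day 3 knockdown arrays, against 12.58, 12.56 and 12.32 on the control arrays, and the groups overlapped. Its change was 0.25 (95% interval -0.09 to 0.58, adjusted p = 0.263), while the upper ends of the intervals of the other 5 ring subunits lay between -0.87 for MCM2 and -0.39 for MCM7. Whether the MCM6 change differs from theirs was not tested, and MCM6 has 1 annotated probe, detected on all 12 arrays.

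Of the factors that join the ring, GINS2 fell by 0.996 (SE 0.22, adjusted p = 0.00381) and left 50.1% of the control level. GINS3 fell by 0.52 and MCM10, which is needed to activate the helicase, by 0.67. The GINS3 call was lost without knockdown day 3 replicate 3 (adjusted p = 0.0539) or control day 3 replicate 1 (0.0561). The MCM10 call was lost without knockdown day 3 replicate 3 (0.0755), without control day 3 replicate 2 (0.0652), and without all replicate 3 arrays (0.0741). CDC45 changed by -0.59 and did not pass (adjusted p = 0.0952), but passed with the replicate block (0.00227), without knockdown day 3 replicate 2 (0.0411), without control day 3 replicate 3 (0.0278) and without all replicate 3 arrays (0.0256). GINS4 changed by -0.47 (adjusted p = 0.220). GINS1 stayed between 4.61 and 5.38 on all 12 arrays and was not tested.

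**Figure D4:**
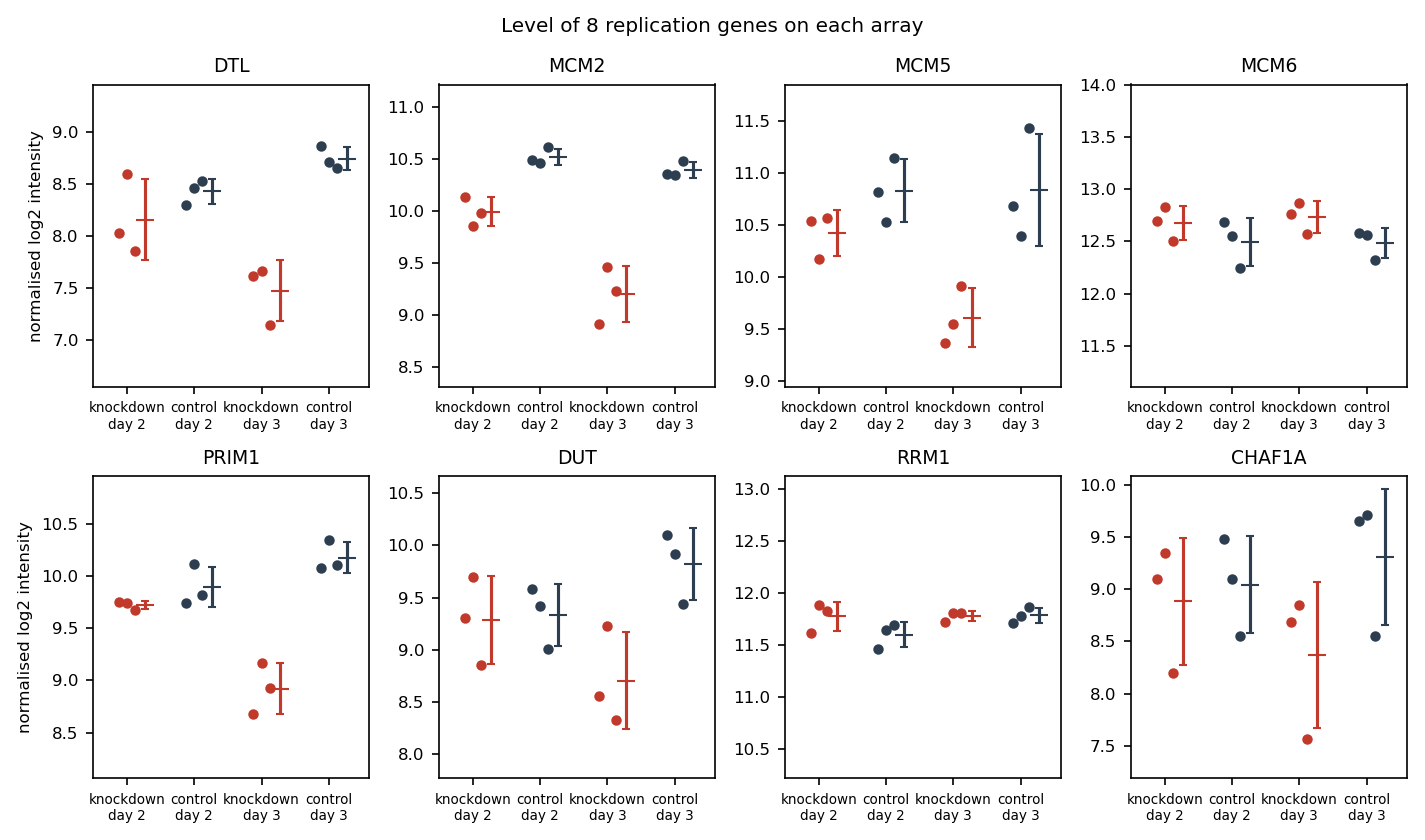
Normalised log2 intensity of 8 replication genes on each array (points, replicates 1 to 3 from left to right) with the group mean and SD, knockdown left of control at each day. Every panel spans the same number of log2 units. DTL, MCM2, MCM5, PRIM1 and DUT show no overlap between the groups at day 3, whereas MCM6 and RRM1 overlap and CHAF1A is low on the replicate 3 array of every group.

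CDC7, the catalytic subunit of the kinase that fires origins, had 7.36, 7.12 and 6.95 on the day 3 knockdown arrays, against 7.78, 8.07 and 7.94 on the control arrays. It fell by 0.79 (SE 0.16, adjusted p = 0.00235), with every knockdown array below every control array. Its activator DBF4 stayed between 4.83 and 5.09 and was not tested.

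All 4 genes of the primase and polymerase alpha complex lay below 0 at day 3, and 3 of them fell, with a median change of -0.74. PRIM1, which encodes the catalytic primase subunit, had 8.68, 9.17 and 8.92 on knockdown arrays, against 10.08, 10.35 and 10.11 on control arrays. Its fall of 1.25 (SE 0.15, adjusted p = 3.93e-05) had the lowest adjusted p of the 49 genes. POLA1, the catalytic subunit of polymerase alpha, had 7.48, 7.97 and 8.14 on knockdown arrays, against 8.51, 8.52 and 8.85 on control arrays. It fell by 0.77 (SE 0.17, adjusted p = 0.00407), and its accessory subunit POLA2 fell by 0.72 (adjusted p = 0.00736). PRIM2, the large primase subunit, changed by -0.66 (adjusted p = 0.106). It passed with the replicate block (2.52e-04) and without knockdown day 3 replicate 2 (0.0419), and its dim probe was detected on 2 of 3 knockdown and 3 of 3 control arrays at day 3.

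Among polymerases delta and epsilon, 3 of 5 tested genes fell, with a median of -0.45. POLE2, an accessory subunit of polymerase epsilon, had 9.003, 9.20 and 8.95 on knockdown arrays, against 9.72, 9.82 and 9.74 on control arrays, a fall of 0.71 (SE 0.13, adjusted p = 9.04e-04). POLD1, the catalytic subunit of polymerase delta, had 8.54, 8.96 and 8.97 on knockdown arrays, against 9.31, 9.31 and 9.57 on control arrays, a fall of 0.57 (adjusted p = 0.0129). Neither gene's groups overlapped. The POLD1 call was lost without knockdown day 3 replicate 1 (0.0664) or control day 3 replicate 3 (0.0515). POLD3 fell by 0.45 (adjusted p = 0.0415), a call lost under many settings: without any 1 of the 6 day 3 arrays or replicate 1 of either day 2 group (0.0528 to 0.165), with median scaling (-0.27, 0.134), with quantile normalisation alone (0.0527), with the trended fit (0.0518) and with the day 3 arrays fitted alone (0.0512). POLE, the catalytic subunit of polymerase epsilon, changed by -0.10 (95% interval -0.46 to 0.27) and POLE3 by -0.27 (adjusted p = 0.350).

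RFC3, RFC4 and RFC5, subunits of the clamp loader, fell, 3 of the 6 genes of the clamp and its loader, and the median was -0.40. RFC4 had 10.67, 10.69 and 10.76 on knockdown arrays, against 11.25, 11.12 and 11.20 on control arrays, a narrow spread around a fall of 0.48 (SE 0.11, adjusted p = 0.00607). RFC2 had 8.30, 8.16 and 7.48 on knockdown arrays, against 8.66, 8.44 and 8.39 on control arrays. Its change of -0.51 did not pass (adjusted p = 0.0796), but did with the replicate block (0.0199) and without knockdown day 3 replicate 1 (0.0441). PCNA changed by -0.29 (95% interval -0.74 to 0.16) and RFC1, the large subunit, by -0.11 (-0.54 to 0.32). The falls of RFC3 (-0.41, adjusted p = 0.0413) and RFC5 (-0.38, 0.0432) were near the threshold. Without any 1 of the 6 day 3 arrays both calls were lost (0.0520 to 0.114 for RFC3, 0.0501 to 0.137 for RFC5), as they were with median scaling (0.0816 and 0.0706) and without all replicate 3 arrays (0.121 and 0.0991). RFC5 was also lost without any 1 day 2 control array (0.0522 to 0.0541) and with the day 3 arrays fitted alone (0.0633).

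Of the 3 subunits of RPA, which coats single-stranded DNA at the fork, 2 fell. RPA3 had 11.51, 11.55 and 11.74 on knockdown arrays, against 12.20, 12.14 and 12.39 on control arrays, and fell by 0.64 (SE 0.13, adjusted p = 0.00213). RPA2 had 11.31, 11.29 and 11.05 on knockdown arrays, against 11.88, 11.77 and 11.72 on control arrays, and fell by 0.57 (SE 0.13, adjusted p = 0.00540). RPA1, the large subunit with most of the DNA-binding surface, changed by 0.02 (95% interval -0.28 to 0.31), and its groups overlapped. Whether RPA1 differs from the other subunits was not tested.

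Of the 3 genes that finish lagging-strand fragments, 2 fell, with a median change of -0.40. RNASEH2A, the catalytic subunit of the RNase that removes RNA from hybrids, had 9.22, 9.19 and 9.49 on knockdown arrays, against 9.65, 9.92 and 9.87 on control arrays, a fall of 0.52 (adjusted p = 0.0205). FEN1, the nuclease that trims flaps, had 11.53, 11.60 and 11.60 on knockdown arrays, against 11.89, 12.07 and 11.97 on control arrays, a fall of 0.40 (adjusted p = 0.0217). Neither gene's groups overlapped. Both calls were lost without knockdown day 3 replicate 1 or 2 or control day 3 replicate 2 (0.0717, 0.0756 and 0.0773 for RNASEH2A; 0.0718, 0.0526 and 0.0832 for FEN1). RNASEH2A was lost also without control day 3 replicate 3 (0.0567), and FEN1 without all replicate 3 arrays (0.0700). LIG1, the ligase that seals the fragments, changed by -0.38 (adjusted p = 0.105).

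Nucleotide supply had 1 fall among 5 genes and the median nearest to 0 of the 10 subgroups (-0.15). DUT, the enzyme that removes dUTP and makes the precursor of dTMP, had 8.55, 9.23 and 8.33 on knockdown arrays, against 10.10, 9.92 and 9.44 on control arrays. It fell by 1.12 (SE 0.27, adjusted p = 0.00668), with no overlap. RRM2, the small subunit of ribonucleotide reductase, had 7.66, 7.70 and 7.26 on knockdown arrays, against 8.28, 8.24 and 7.59 on control arrays, and its groups overlapped. Its change of -0.50 did not pass (adjusted p = 0.188), but did with the replicate block (0.00375) and without all replicate 3 arrays (0.0181). RRM1, the large subunit, changed by -0.01 (95% interval -0.28 to 0.26). TYMS, which makes dTMP, changed by -0.09 (-0.50 to 0.32) and TK1, which salvages thymidine, by -0.15 (-0.63 to 0.32). None of these 3 passed the test, and the TYMS and TK1 intervals include changes as large as those of RFC3, RFC4 and RFC5.

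CHAF1A and CHAF1B encode subunits of CAF-1, which deposits histones behind the fork, and neither passed at day 3. CHAF1A had 8.69, 8.85 and 7.57 on knockdown arrays, against 9.66, 9.71 and 8.56 on control arrays, so the replicate 3 array was the lowest of both groups. Its change was -0.94 (SE 0.40, adjusted p = 0.101), and it passed with the replicate block (1.42e-04), without control day 3 replicate 3 (-1.31, 0.0281) and without all replicate 3 arrays (0.00349). CHAF1B had 8.93, 9.01 and 8.23 on knockdown arrays, against 8.98, 8.93 and 8.32 on control arrays, a change of -0.02 (95% interval -0.57 to 0.54). With the replicate block, 33 of the 49 genes fell at day 3, all 27 named as falling above and the 6 given with a blocked p-value (CDT1, CDC45, PRIM2, RFC2, RRM2 and CHAF1A).

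Set side by side, the share of tested genes that fell at day 3 was 8 of 11 for the helicase and 3 of 4 for primase and polymerase alpha. It was 3 of 5 for polymerases delta and epsilon, 3 of 6 for the clamp and its loader, 4 of 9 for origin licensing and 1 of 5 for nucleotide supply. Single-strand binding and lagging-strand fragment maturation each had 2 of 3, the firing kinase 1 of 1 and chromatin assembly 0 of 2. Over all genes the share was 15.3%, so that of nucleotide supply (20%) lay near it. Medians ran from -0.79 for the firing kinase (CDC7 alone), -0.74 for primase and polymerase alpha and -0.67 for the helicase to -0.15 for nucleotide supply. The subgroups are small, and differences between them were not tested.

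**Figure D5:**
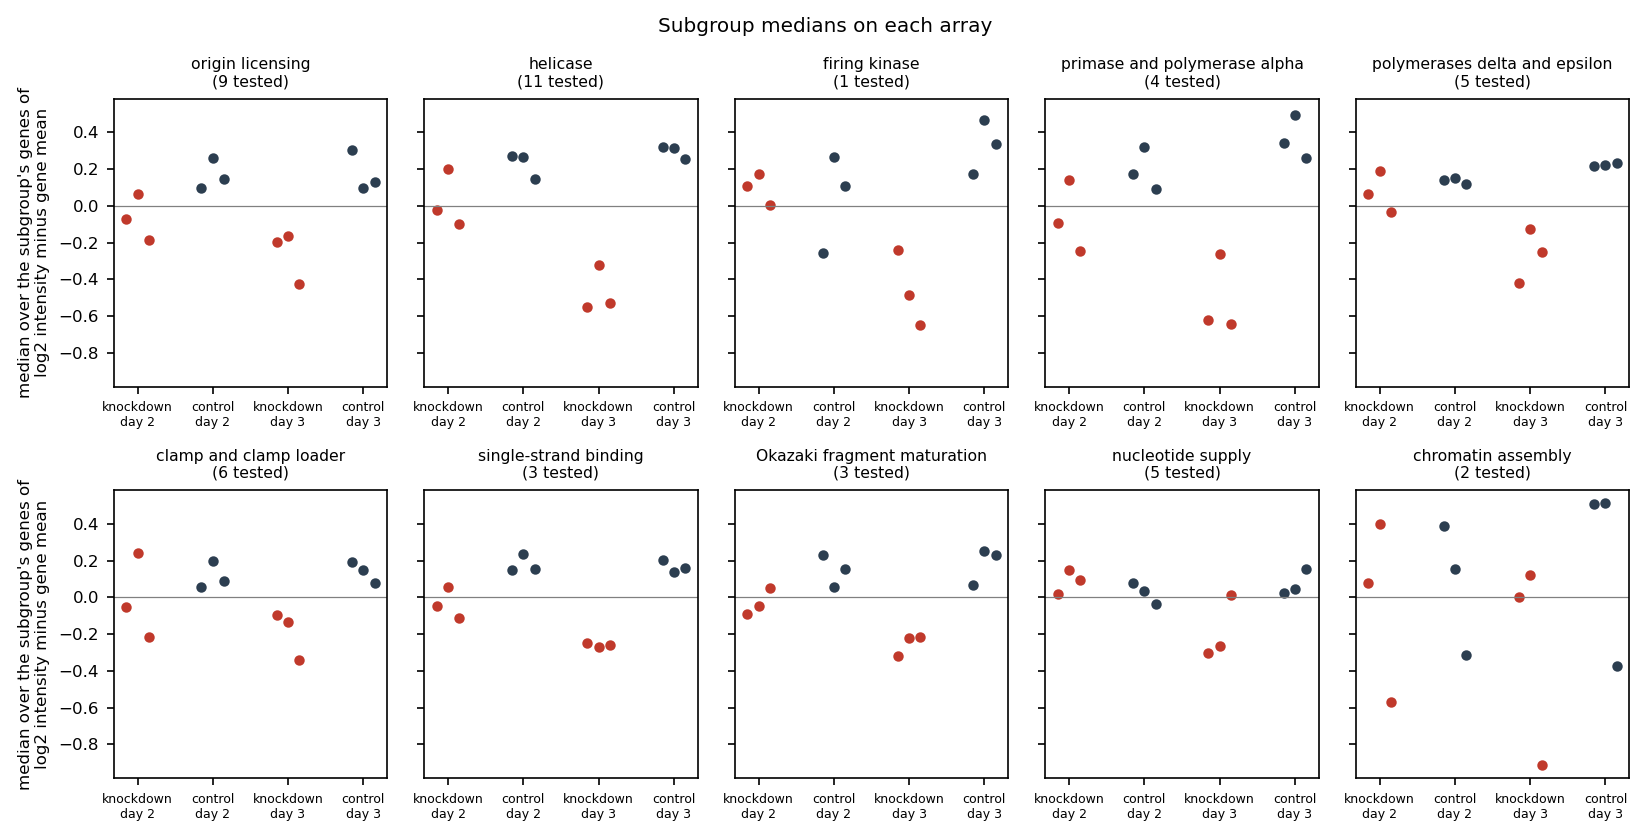
Median over each subgroup's tested genes of the log2 intensity less the gene's mean over 12 arrays, 1 point per array (replicates 1 to 3 from left to right), knockdown left of control at each day. At day 3 the knockdown arrays lay below the control arrays in every subgroup except chromatin assembly, by a narrow margin in nucleotide supply (highest knockdown median 0.01, lowest control median 0.02).

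At day 2 most replication genes lay slightly below 0. The median change was -0.16, against -0.04 over all genes, and 41 of 49 lay below 0, against 5822 of all 10506. MCM2 had 10.13, 9.86 and 9.98 on the day 2 knockdown arrays, against 10.49, 10.46 and 10.61 on the control arrays, so the groups did not overlap. It fell by 0.53 (SE 0.15, adjusted p = 0.0423), but 9 of the 12 leave-one-out fits took it past the threshold (adjusted p = 0.0502 to 0.137). These omitted any 1 day 2 array, knockdown day 3 replicate 3, or control day 3 replicate 1 or 2. The call also failed with the day 2 arrays fitted alone (0.0668) and with no replicate 3 arrays (0.194). MCM4 (-0.42, adjusted p = 0.0881) came nearest among the others, and PRIM1 changed by -0.17, DTL by -0.27 and DUT by -0.05.

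The effect of knockdown at day 3 less that at day 2 had a median of -0.38 over the 49 genes, against -0.03 over all genes. For this difference, 42 of the 49 lay below 0, against 5659 of all 10506. PRIM1 was the only one of the 49 genes that passed the test of this difference, against a background of 0.581% of all genes with a lower effect at day 3. At day 2 it had 9.75, 9.74 and 9.68 on knockdown arrays, against 9.75, 10.11 and 9.82 on control arrays, so the groups lay close together and overlapped. The difference between the effects was -1.08 (SE 0.22, adjusted p = 0.0173). Omitting control day 2 replicate 1 (0.0556) or 3 (0.0505), knockdown day 3 replicate 1 (0.0529), control day 3 replicate 2 (0.0541) or all replicate 3 arrays (0.0981) ended this call. For CDC7 the difference was -0.84 (adjusted p = 0.0829) and for DTL -0.996 (0.0903), neither past the test. All comparisons of the days use the same 12 arrays, so they are not independent.

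Within knockdown cells, day 3 over day 2, 5 of the 49 genes fell, against 1.87% of all genes. They were MCM2 (-0.79, adjusted p = 0.00611), PRIM1 (-0.80, 0.00694), ORC1 (-0.70, 0.00966), MCM7 (-0.53, 0.0278) and POLE2 (-0.51, 0.0319). With the replicate block 18 genes fell, while calls over all genes, both directions together, went from 607 to 1611. The count was 2 without knockdown day 3 replicate 1 and 3 on omitting replicate 3 of the day 3 or replicate 2 of the day 2 knockdown group, and 2 when the knockdown arrays were fitted alone. Within control cells, day 3 over day 2, 0 of the 49 genes changed by limma, against 0.133% of all genes falling, and 0 had an unadjusted p under 0.05. Changes in control cells ranged from -0.23 to 0.49. Over the 49 genes the median change from day 2 to day 3 was 0.04 in control cells and -0.30 in knockdown cells. For single genes the control change could be the larger, as for POLA1 (0.31 in control, -0.24 in knockdown cells, neither past the test).

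Of the 49 genes, 14 had more than 1 probe kept, and the brightest stood for the gene. In a fit of all kept probes, further probes of genes that fell at day 3 passed for MCM4 (-1.04), MCM3 (-0.80) and MCM7 (-0.95). They also passed for MCM10 (-0.73), PRIM1 (-1.03) and, at the threshold, FEN1 (-0.48, limma adjusted p = 0.0499). They did not pass for RFC3 (-0.34, limma adjusted p = 0.208, and -0.77, 0.0534) or RFC4 (-0.42, 0.0903). Probes of DUT, ORC6 and RPA1 differed in sign. The brighter DUT probes gave -1.12 and -1.003 and passed, whereas the dimmest gave 0.29 and did not (0.263). ORC6 probes gave 0.06 and -0.06 and RPA1 probes 0.02 and -0.15, none of them past the test. Averaged over its probes, the DUT change was -0.61. Cross-hybridisation between related genes was not tested.

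Genes that work beside the replication machinery were set against the same background of 15.3% falling at day 3. Of 28 further replisome genes tested, 8 fell and 0 rose (median -0.31). They include NASP, a histone chaperone (-1.21), DSCC1, of an alternative clamp loader (-1.05), TICRR, which helps fire origins (-1.01), and WDHD1, which links polymerase alpha to the helicase (-0.88). Of 24 further nucleotide synthesis genes, 6 fell and 1 rose (median -0.28). NME1, a nucleoside diphosphate kinase, fell by 1.03. PFAS of purine synthesis (-0.92) and the folate enzyme MTHFD1 (-0.86) fell too, while CMPK1, a pyrimidine nucleoside monophosphate kinase, rose by 0.77.

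Among 14 regulators of the E2F switch and G1/S transition, 4 fell and 1 rose at day 3 (median -0.27). The repressor E2F7 (-0.74), the phosphatase CDC25A (-0.67), the E2F partner TFDP2 (-0.55) and cyclin A2, CCNA2 (-0.49), fell, and the kinase CDK2 rose by 0.46 (adjusted p = 0.0315). The probes of E2F1 and E2F8 were not detected well enough to be tested. Of 8 checkpoint genes 4 fell (median -0.38), led by the kinase CHEK2 (-1.41, SE 0.15), whose effects also differed between the days (-1.10, adjusted p = 0.0147). ATRIP (-0.66), RAD17 (-0.64) and CHEK1 (-0.51) fell as well. WEE1, a kinase that restrains CDK activity, rose at day 2 by 0.56 (adjusted p = 0.0363). Of 26 mitosis genes 4 fell and 0 rose (median -0.23), namely AURKA (-0.61), TTK (-0.52), KIF11 (-0.50) and CENPF (-0.50), a share near the background. Most of the mitosis genes still lay below 0 at day 3, 24 of 26, against 5948 of all 10506 genes. For the difference between days, 26 of 26 lay below 0 (median -0.31), against 5659 of all 10506.

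Markers of cell identity moved in the same arrays. At day 3, 8 of 9 tested pluripotency markers fell, and their summed normalised intensity was 19311 to 26390 on knockdown arrays, against 50101 to 53469 on control arrays. Both the count and the sum include POU5F1, the gene that the shRNA targets (-2.96). Its fall came from the design and says nothing about the other markers. All 5 tested endoderm markers rose, with a summed intensity of 19277 to 23966 on knockdown arrays, against 906 to 2370 on control arrays. Of 6 mesoderm markers 5 rose and TBXT fell (2746 to 3008 on knockdown arrays, against 274 to 543 on control arrays). Of 4 trophoblast and amnion markers 3 rose (1176 to 1485 on knockdown arrays, against 296 to 385 on control arrays). The neuroectoderm marker tested, NES, was higher in knockdown (3084 to 4374 on knockdown arrays, against 1557 to 2041 on control arrays). At day 2 it had 2879 to 4816 on knockdown arrays and 2655 to 3299 on control arrays. Its control level was thus lower at day 3, while its knockdown level was similar on both days. Of 5 fibroblast markers 4 rose and THY1 fell (12436 to 19479 on knockdown arrays, against 7204 to 12287 on control arrays). The probes of GATA6, HHEX, TBX6, CDX2, GATA2 and CGA were not detected well enough to be tested. The same held for PAX6, SOX1, LHX2 and ZIC1 of neuroectoderm and for COL3A1 and DCN of fibroblasts. The part of these cell identity changes in the fall of the replication genes was not tested.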

How the data were processed

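The deposited table gives 1 intensity and 1 detection p-value for each of 48803 probes on 12 arrays, without normalisation that the file headers record. A second deposited table holds the authors' log2 values. These matched log2 of the intensities after a constant for each array and a baseline for each probe were taken off (remainder SD 2.53e-07, column medians -0.0146 to 0.0136). The samples behind that baseline are unknown, and the table served as an alternative. The scanner software is not given in the sources used here.

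Background correction used neqc (R 4.3.3, limma 3.58.1) on the intensities (detection p-values in place of control probes and an offset of 16), followed by quantile normalisation and log2. Kept were 15407 probes whose detection p lay under 0.01 on 3 or more arrays. GEO's platform annotation names exactly 1 gene on 28098 probes (13 carry several, the rest none), and 28059 of the 28098 matched RefSeq by Entrez identifier. The brightest kept probe stood for a gene, giving 10506 genes. All arrays entered 1 unblocked fit of group means, with two-sided moderated tests and Benjamini-Hochberg adjustment over all genes, and a gene was called at an adjusted p under 0.05. The fit was tried on simulated data with independent noise on each array. Such data lack the deviations shared by arrays of the same replicate number, so the trial does not cover them.

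Groups and replicate numbers came from the sample titles. Deviations of same-numbered arrays from their group means correlated at 0.0220, 0.398 and 0.701 (replicates 1 to 3) for the day 2 groups, 0.483, 0.389 and 0.738 for the day 3 groups, 0.241, 0.214 and 0.666 for the control groups and 0.220, 0.598 and 0.724 for the knockdown groups. Every correlation but that of replicate 1 for the day 2 groups lay over 0.1 (the labels do not define the numbers). Blocked values therefore stand beside day 3 results of replication genes where the block changed a call. Blocked counts are given for the other comparisons.

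Members and lists were chosen with earlier results of these data known. Single-array values are given for the 2 genes of each subgroup with the largest day 3 change, genes called at day 2 or for the difference between days, and POU5F1. Other lists name up to 4 called genes by size of day 3 change, and any called at day 2; CDK2, NES, TBXT, THY1 and the array values of CDT1 and MCM6 were added after their values were seen. Alternatives were other scalings, an offset of 50, other detection filters, the mean over probes, a replicate block, trended robust moderation, fits of only the groups compared, and fits without 1 array. Coordinates of promoters are those of the RefSeq table.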

Additional observations from a re-analysis of the deposited data

Results flagged for a closer look

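For PRIM1, the catalytic primase subunit, the effect of knockdown at day 3 less that at day 2 was -1.08 on the log2 scale (limma adjusted p = 0.0173 over 10506 genes). It drew attention because the effects at the days differed by a test of the difference itself. The change was -1.25 at day 3 and -0.17 at day 2. A further PRIM1 probe gave -1.03 at day 3 and -0.24 at day 2.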

How the results depend on the processing

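The count of 27 replication genes falling at day 3 lay between 21 and 33 under all alternatives, 0 rose, and 18 of the 27 passed in every one. No call changed sign. It was 24 with the authors' log2 values and with median scaling, which are the same by construction, and 25 without all replicate 3 arrays, an alternative chosen after seeing the data. Leaving out 1 array gave 21 to 27. With the replicate block the counts were 33 at day 3 (27 of them shared with the fit without it), 3 at day 2 (1 without it), 12 for the difference between days (1 without it), and 18 in knockdown cells (5 without it). Calls over all genes, both directions together, went from 3114 to 4536 at day 3 and from 910 to 1815 at day 2. They went from 243 to 756 for the difference and from 607 to 1611 in knockdown cells. At day 2 the replicate 1 arrays hardly deviated together (correlation 0.0220), unlike those of replicates 2 and 3 (0.398 and 0.701). The blocked counts at day 2 and for the difference therefore show only how the block moves the count. Fits of only the groups compared gave 0 at day 2 and 2 in knockdown cells, and such a fit is no alternative for the difference between days, which uses all groups. The trended fit gave 2 for that difference. Without all replicate 3 arrays the count was 0 at day 2 and 0 for the difference. Leaving out 1 array gave 0 to 1 at day 2, 0 to 2 for the difference and 2 to 6 in knockdown cells. The count in control cells was 0 under every alternative, with the block too. The cause of these moves was not tested, beyond the smaller number of arrays in fits that leave some out. Dim probes (CDC6, PRIM2) were at the detection limit on some arrays, which limits their values.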
